A study of Homo sapiens with 8 samples.

Results

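Expression of 8 genes of cholesterol synthesis was followed in 2 human colorectal cancer cell lines in which a ribosomal protein had been silenced. The genes were chosen by symbol, HMGCS1, SQLE, IDI1, FDPS, FDFT1, LSS, DHCR7 and INSIG1, 8 of the 19124 gene symbols in the tables. 7 of them encode enzymes of the pathway and INSIG1 encodes a protein that restrains it, so the group holds synthesis and its feedback control, and none of the 8 is itself a receptor for cholesterol uptake. HCT116 and HT29, established lines with epithelial morphology from colon carcinoma, were grown in RPMI medium and transfected by lipofection with 15 nM of 1 siRNA, and total RNA was taken after 48 h. In each line the siRNA was directed against RPL9, RPL17 or RPL27, proteins of the large ribosomal subunit, or was a negative control called NC. That gave 8 libraries, 1 for each line and siRNA, so that no condition was repeated within a line, and differences between siRNAs were judged across the 2 lines. The siRNA sequences, and how many were used per target, are not named in the labels.

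Cells build cholesterol from acetyl-CoA through mevalonate, isoprenoid diphosphates, squalene and a series of sterols, in the cytosol and the endoplasmic reticulum. When sterols in that membrane are low, the transcription factors SREBP-1 and SREBP-2 are released by proteolysis and raise transcription of most genes of the pathway together with those of uptake. When sterols are plentiful, INSIG1 holds the SREBP escort SCAP in the endoplasmic reticulum, and INSIG1 is itself an SREBP target.

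Levels are given in RPKM, reads scaled to transcript length and to the mapped reads of a library, as deposited, and differences as log2(RPKM + 1) of the RPL siRNA minus NC. All 8 genes passed the filter of a mean of at least 1 RPKM, as did 14281 of the 19124 genes. The targeted genes stood at 31.9%, 38.5% and 26.7% of NC under RPL9, RPL17 and RPL27 siRNA in HCT116, and at 14.7%, 18.7% and 13.7% of NC in HT29. Depth is not recorded in the tables, and steps among low values gave a rough 20750000 to 25770000 reads per library. Colon epithelial markers summed to 29124 to 31253 RPKM in HCT116 RPL libraries, against 19402 in HCT116 NC, and to 41330 to 47265 RPKM in HT29 RPL libraries, against 41039 in HT29 NC. Of these, VIL1 was at 0 to 2.89 RPKM in HCT116 and CDX1 at 0 to 0.0819 RPKM in all 8 libraries. Leukocyte markers summed to 1864 to 3030 RPKM in HT29, almost all of it LYZ, while PTPRC stayed at or under 1.87 RPKM. One library stood apart. In HT29 NC, the deviation of a gene from its mean over the libraries fell with transcript length, with a rank correlation of -0.54 over 14180 genes, whereas the other 7 libraries had 0.12 to 0.23. Each HT29 difference from NC is therefore also given after removal of a smooth trend with length, called length-corrected below; HT29 differences of all tested genes had medians of 0.17 to 0.20 before and -0.06 to -0.02 after it. Whether that trend comes from the RNA or the library was not tested.

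In GENCODE 29 on GRCh38, a later build than the hg19 of the files, all 8 are annotated, HMGCS1 at chr5:43289395-43313512, IDI1 at chr10:1039152-1049170, FDPS at chr1:155308748-155320666, LSS at chr21:46188141-46228824, DHCR7 at chr11:71428193-71452868 and INSIG1 at chr7:155297776-155310235, while SQLE and FDFT1 share a further chromosome. FDPS has 8 named pseudogenes, FDPSP1 to FDPSP8, and how reads shared with them were counted is not stated in the labels, so its level is uncertain to that degree. Exons of HMGCS1, IDI1, FDPS, FDFT1 and LSS overlap transcripts of the other strand, which counts without strand cannot separate, and those of SQLE, DHCR7 and INSIG1 do not.

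Promoter windows from RefSeq on GRCh38.p14, the 250 bases before a transcript start, were at hand for 6 of the 8 genes in 10 windows. SREBPs are known to act beside the general factor NF-Y, whose site contains CCAAT. On either strand CCAAT was found in 7 of the 10 windows and in all 6 genes, against 32.0% of the 35116 windows of all genes. The Sp1 motif GGGCGG was in 9 of 10 windows (42.6% of all) and the E-box CACGTG in 1 window, that of INSIG1 (6.34% of all). The sterol element SRE-1 in its classic form was in none (0.0342% of all), nor was the looser TCACNCCAC (0.883% of all), which includes it. A match is a string of letters and was not tested as a binding site. The 6 stretches that follow show the shared letters, 1 CCAAT box per gene in capitals with 25 bases on either side, read 5′ to 3′ on the strand of the gene, where ATTGG is CCAAT on the other strand. The DHCR7 stretch itself lies within the GENCODE span of its gene given above, whereas the other stretches lie outside theirs.
HMGCS1, chr5:43313538-43313592, minus strand: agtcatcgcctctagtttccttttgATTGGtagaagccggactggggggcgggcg
IDI1, chr10:1049207-1049261, minus strand: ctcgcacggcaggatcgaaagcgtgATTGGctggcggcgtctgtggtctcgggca
FDPS, chr1:155308665-155308719, plus strand: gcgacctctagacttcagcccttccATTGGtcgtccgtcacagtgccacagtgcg
LSS, chr21:46228895-46228949, minus strand: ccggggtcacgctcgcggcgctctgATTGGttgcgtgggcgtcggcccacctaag
DHCR7, chr11:71448458-71448512, minus strand: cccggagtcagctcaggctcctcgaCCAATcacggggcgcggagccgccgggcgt
INSIG1, chr7:155297683-155297737, plus strand: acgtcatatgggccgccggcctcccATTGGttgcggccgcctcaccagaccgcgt
The printed box reads ATTGG along the gene in HMGCS1, IDI1, FDPS, LSS and INSIG1, and CCAAT in DHCR7. Each gene had 1 to 5 boxes. The box nearest a start was printed, among those whose stretch overlaps no annotated exon of the gene's strand. FDPS, IDI1 and DHCR7 also hold a box, not printed, that reads the other way.

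In HCT116, every one of the 8 genes was lower under each RPL siRNA than under NC. In HT29 the genes split: IDI1, FDPS, FDFT1 and INSIG1 were below NC with all 3 RPL siRNAs, HMGCS1 and DHCR7 were above NC with all 3, and SQLE and LSS lay on both sides of it. Over the 24 values of each line, RPL levels were 48.3% to 88.2% of NC in HCT116 and 27.7% to 157% of NC in HT29. All 3 RPL libraries lay below NC for 8 of 8 genes in HCT116, where 32.4% of all tested genes did so, and above it for 0 of 8 (33% of all). In HT29 they lay below NC for 4 of 8 genes (32.7% of all) and above it for 2 of 8 (46.6% of all). In both lines they lay below NC for 4 of 8 (13% of all), and below in HCT116 but above in HT29 for 2 of 8 (12.6% of all). After length correction, all 3 were below NC in HCT116 for 8 of 8 genes (31.1% of all, with 34.8% of all above NC there) and in HT29 for 5 of 8 (40.6% of all), LSS being the addition. The count for both lines became 5 of 8 (16.7% of all), and DHCR7 alone was above NC in HT29 with all 3 (36% of all) and so kept opposite sides (7.8% of all). In bulk libraries, a lower level in every cell and fewer cells with a high level cannot be told apart. These values share 1 NC library per line, so the 3 differences within a line are not independent.

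**Figure D1:**
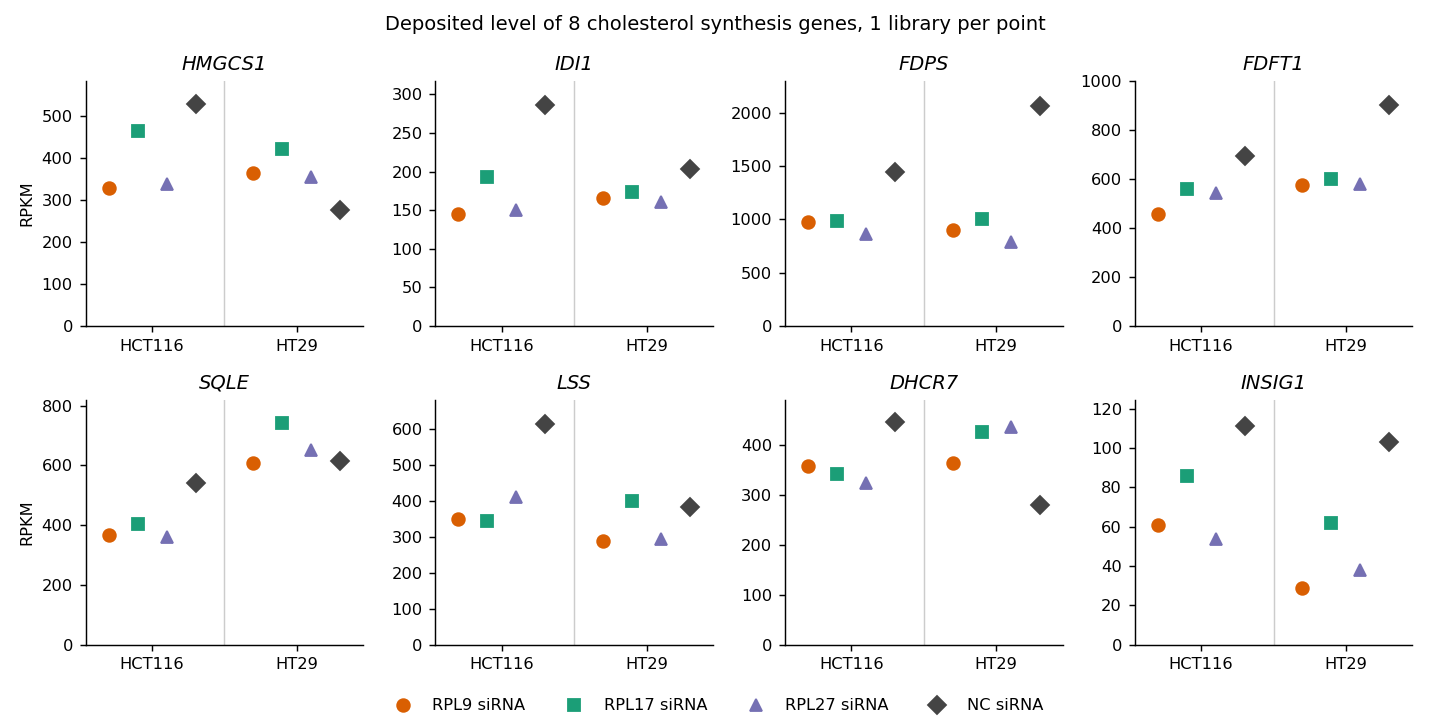
Level of each of the 8 genes (vertical axis, RPKM) in each of the 8 libraries, 1 point per library, with the RPL9, RPL17 and RPL27 siRNA libraries left of NC in each line. In HCT116 the NC point is the highest for all 8 genes, and in HT29 it is the highest for IDI1, FDPS, FDFT1 and INSIG1 but the lowest for HMGCS1 and DHCR7.

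The first enzyme, HMGCS1, joins acetoacetyl-CoA and acetyl-CoA into HMG-CoA at the entry to the mevalonate pathway. Its level was 329, 466 and 339 RPKM under RPL9, RPL17 and RPL27 siRNA in HCT116, against 528 RPKM under NC. The 3 RPL values lay below NC, with RPL17 the nearest. In HT29 it was 365, 422 and 354 RPKM under the same siRNAs, against 276 RPKM under NC, so there the 3 RPL values lay above. The mean log2 difference from NC was -0.50 in HCT116 and 0.46 in HT29, and over both lines it was -0.02 (SE 0.25, limma adjusted p = 0.96). HT29 genes of its transcript length, 3506 bases, were themselves mostly above NC, and the length-corrected HT29 difference was 0.09, with 1 of 3 values below 0.

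IDI1 and FDPS act next, on the isoprenoid building blocks. IDI1 interconverts isopentenyl and dimethylallyl diphosphate. It measured 144, 193 and 151 RPKM under RPL9, RPL17 and RPL27 siRNA in HCT116, against 287 RPKM under NC, and 166, 174 and 161 RPKM in HT29, against 203 RPKM under NC. All 6 RPL values were below the NC value of their line, and the gap was wider in HCT116. The mean log2 difference was -0.82 in HCT116 and -0.29 in HT29 (-0.81 and -0.33 length-corrected), and -0.56 over both (SE 0.20, limma adjusted p = 0.18). FDPS condenses these units to farnesyl diphosphate, from which sterols, dolichol, ubiquinone and protein prenyl groups are made. FDPS measured 973, 983 and 860 RPKM under RPL9, RPL17 and RPL27 siRNA in HCT116, against 1445 RPKM under NC. In HT29 it measured 899.9, 1001 and 787 RPKM, against 2065 RPKM under NC. The 6 RPL libraries lay close together in both lines, and NC stood above them, farther in HT29. The mean log2 difference was -0.62 in HCT116 and -1.21 in HT29, and -0.92 over both (SE 0.18, limma adjusted p = 0.085). Length correction moved the HT29 value to -0.88, since short transcripts such as FDPS (1478 bases) were high in that NC library, and the value over both lines to -0.76, at which FDPS passed the threshold (limma adjusted p = 0.024). It was the 1 of the 8 genes to do so in that comparison, in which 6.09% of all genes passed.

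FDFT1, SQLE and LSS carry the pathway from farnesyl diphosphate to the first sterol. FDFT1, squalene synthase, is the first step given wholly to sterols. It measured 459, 562 and 546 RPKM under RPL9, RPL17 and RPL27 siRNA in HCT116, against 696 RPKM under NC, and 574, 603 and 579.5 RPKM in HT29, against 905 RPKM under NC. The RPL values were below NC in both lines, by log2 means of -0.42 in HCT116 and -0.63 in HT29 (-0.41 and -0.63 length-corrected). SQLE, squalene epoxidase, adds the oxygen needed for ring closure and is a rate-limiting step. It measured 368, 403 and 361 RPKM in HCT116, against 540 RPKM under NC, and 608, 741 and 650 RPKM in HT29, against 616 RPKM under NC. In HCT116 the RPL values were all below NC, by a mean of -0.52, while in HT29 they surrounded it, with a mean of 0.11 (-0.12 length-corrected). LSS, lanosterol synthase, closes the rings. Its level was 349.9, 345 and 409.6 RPKM in HCT116, against 615 RPKM under NC, and 288, 398 and 293 RPKM in HT29, against 381 RPKM under NC. HCT116 values lay well below NC, and in HT29 the RPL17 library was just above it and the others below. The mean was -0.74 in HCT116 and -0.24 in HT29 (-0.71 and -0.47 length-corrected). Over both lines the 3 enzymes differed from NC by -0.52, -0.21 and -0.49 on the log2 scale for FDFT1, SQLE and LSS (SE 0.15, 0.19 and 0.21), with limma adjusted p = 0.13, 0.51 and 0.22, and none passed.

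DHCR7 reduces 7-dehydrocholesterol to cholesterol at the end of the pathway. It measured 358, 342 and 324 RPKM under RPL9, RPL17 and RPL27 siRNA in HCT116, against 446 RPKM under NC. In HT29 the order was turned round, with 363, 426 and 436 RPKM under the RPL siRNAs, against 278 RPKM under NC. No RPL value overlapped NC in either line. The mean log2 difference was -0.39 in HCT116 and 0.55 in HT29, and the HT29 value kept its sign after length correction, at 0.40. Over both lines the difference was 0.08 (SE 0.25, limma adjusted p = 0.85), and its sign was not stable: it was -0.08 under quantile normalisation and -0.12 after centring each library on its median.

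INSIG1, the brake on SREBP release, had the lowest RPKM of the 8 and the lowest single share of NC in each line, under RPL27 in HCT116 and RPL9 in HT29. It measured 60.9, 86.0 and 53.8 RPKM under RPL9, RPL17 and RPL27 siRNA in HCT116, against 111 RPKM under NC, and 28.6, 61.9 and 38.0 RPKM in HT29, against 103 RPKM under NC. NC was highest in each line, RPL17 came next, and RPL9 and RPL27 were lowest. As shares of NC these were 54.7%, 77.2% and 48.3% in HCT116 and 27.7%, 59.9% and 36.8% in HT29. The mean log2 difference was -0.76 in HCT116 and -1.32 in HT29 (-0.73 and -1.56 length-corrected), and -1.04 over both (SE 0.25, limma adjusted p = 0.11). Length-corrected, the difference over both lines was -1.14 (limma adjusted p = 0.051), just outside the threshold.

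**Figure D2:**
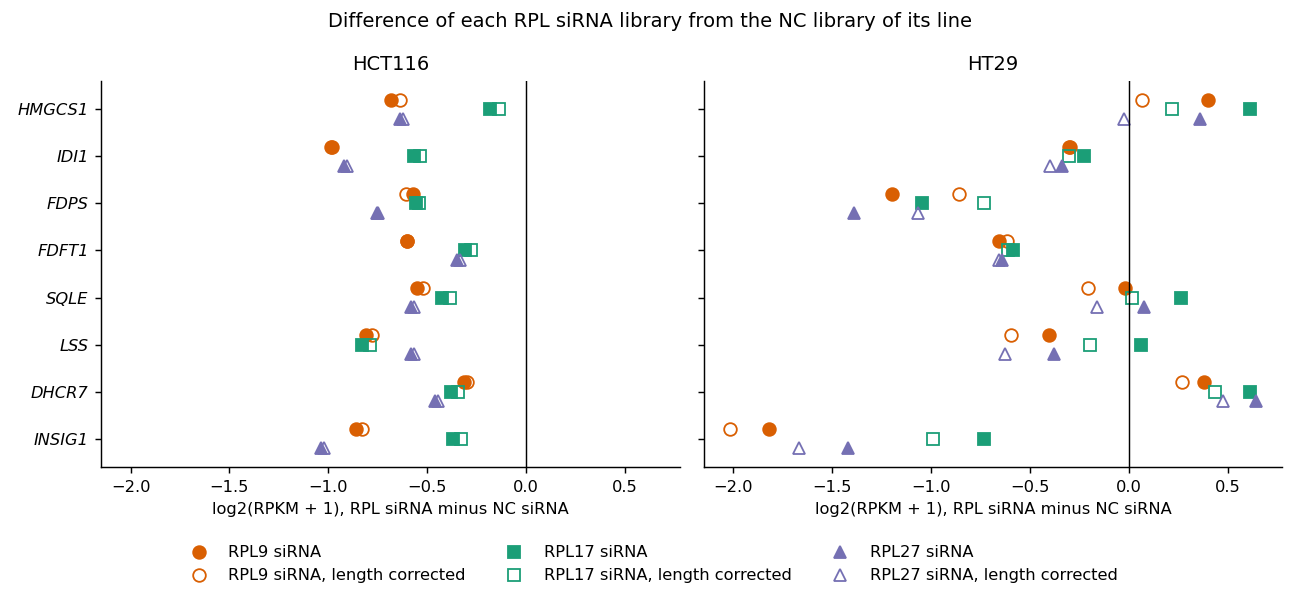
Difference of each RPL siRNA library from the NC library of its line (horizontal axis, log2 of RPKM + 1), for the 8 genes, as deposited and after length correction. HCT116 values run between -1.04 and -0.18, all below 0, whereas HT29 values run between -1.82 and 0.64, with HMGCS1 and DHCR7 to the right of 0.

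None of the 8 genes passed a 5% false discovery rate in the mean RPL siRNA difference from NC, where 0.168% of all tested genes did (24 of 14281). At an unadjusted limma p under 0.05, IDI1, FDPS, FDFT1 and INSIG1 were past it, 4 of 8, where 24.6% of all tested genes were. The median difference of the 8 genes was -0.51, against 0.10 for all tested genes, and 7 of the 8 were below 0. Length-corrected, the median was -0.54, against 0.003. For single siRNAs, the median of the 8 was -0.62 under RPL9, -0.39 under RPL17 and -0.49 under RPL27, and 0 of 8 passed in each, against 0.007%, 0.014% and 0% of all genes. At an unadjusted p under 0.05 these were 4, 2 and 4 of 8, against 20.4%, 15.7% and 16.7% of all genes. The largest single value was INSIG1 under RPL9, -1.34 (SE 0.30, limma adjusted p = 0.13), followed by INSIG1 under RPL27, -1.23 (SE 0.30, limma adjusted p = 0.18), and FDPS under RPL27, -1.07 (SE 0.22, limma adjusted p = 0.15). After length correction FDPS passed under RPL9 (-0.73, limma adjusted p = 0.048), where 3.33% of all genes did, and under RPL27 (-0.91, limma adjusted p = 0.041), where 1.73% did, and no other of the 8 passed, none of them under RPL17, where 0.346% did. Each value rests on the NC libraries. Without HT29 NC, the mean difference passed for SQLE, IDI1 and FDPS (12.9% of all genes). Without HCT116 NC it passed for HMGCS1, FDPS, FDFT1, DHCR7 and INSIG1 (48.6% of all genes), HMGCS1 and DHCR7 then being above NC at 0.46 and 0.55. With 1 NC library left, such a value is the difference within the other line, and its spread comes from the RPL libraries alone, the single NC library being assumed to vary like them. FDPS was below NC in both, at -0.62 and -1.21.

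**Figure D3:**
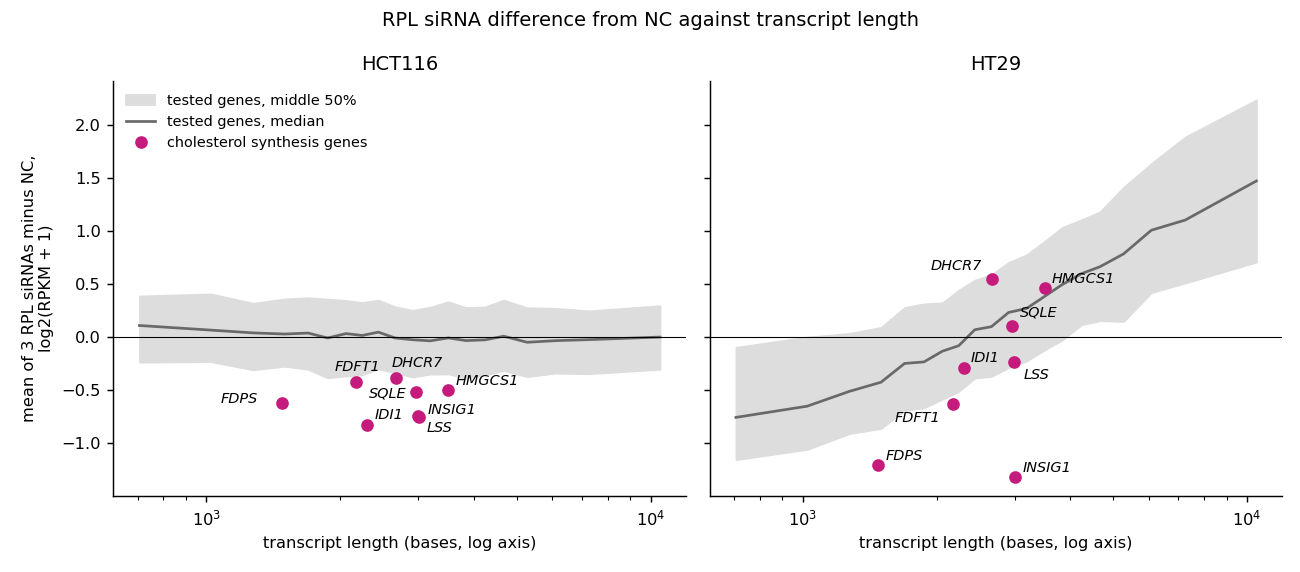
Mean difference of the 3 RPL siRNAs from NC (vertical axis, log2 of RPKM + 1) against transcript length (horizontal axis, bases, log scale) in each line, with the median and the middle 50% of all tested genes and the 8 genes as points. The median is flat in HCT116, where the 8 genes lie at -0.82 to -0.39, and climbs with length in HT29, where FDPS at -1.21, FDFT1 at -0.63 and INSIG1 at -1.32 lie below the middle 50% and HMGCS1 at 0.46 lies near the median of 0.38.

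Whether the response differed between the lines was tested as an interaction, HCT116 minus HT29, with the 3 RPL siRNAs of a line taken as replicates of each other. Each line has 1 NC library, so the spread in this test comes from the RPL libraries alone. NC is assumed to vary like them. DHCR7 passed, at -0.93 (SE 0.23, limma adjusted p = 0.023), and it was the 1 of 8 to do so, where 22.9% of all tested genes passed in either direction (unadjusted, 4 of 8, against 36% of all). HMGCS1 had the larger difference, -0.96, but did not pass (SE 0.31, limma adjusted p = 0.064). SQLE had -0.63 (limma adjusted p = 0.078), IDI1 -0.54, LSS -0.50, FDFT1 0.21 and INSIG1 0.57, the last 4 with limma adjusted p of 0.23 to 0.56. FDPS had 0.59 (limma adjusted p = 0.10), its gap to NC being wider in HT29. After length correction the DHCR7 value was -0.76 and no longer passed (limma adjusted p = 0.078), and 0 of 8 did, where 7.55% of all genes passed. After centring each library on its median the DHCR7 value was -0.49 (limma adjusted p = 0.15), while FDPS then passed at 1.03 (limma adjusted p = 0.015), where 24.8% of all genes did. Centring leaves the length trend in place, and length-corrected the value was 0.25 for FDPS and -0.55 for HMGCS1.

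Among the RPL siRNAs, RPL17 had the highest levels most often. It gave the highest of the 3 RPL values in both lines for 6 of 8 genes, HMGCS1, SQLE, IDI1, FDPS, FDFT1 and INSIG1, where 16.4% of all tested genes had that order. RPL9 was lowest of the 3 in both lines for FDFT1 alone (16.9% of all) and RPL27 for FDPS alone (17.1% of all). None of the 8 had RPL9 or RPL27 as the highest in both lines (17.5% and 15.8% of all) or RPL17 as the lowest (15.1% of all). INSIG1 spread most, over a log2 range of 0.67 in HCT116 and 1.09 in HT29, and FDFT1 least in HT29, 0.07. In the comparison with the other two RPL siRNAs, which leaves NC out, RPL17 was above 0 for 8 of 8 genes, with a median of 0.18, against 0.01 for all tested genes. The difference was 0.73 for INSIG1 (SE 0.19, limma adjusted p = 0.14) and 0.36 for HMGCS1 (SE 0.09, limma adjusted p = 0.14). For RPL9 the median was -0.14, with INSIG1 at -0.45 (limma adjusted p = 0.27), and for RPL27 it was -0.09, with FDPS at -0.23 (limma adjusted p = 0.16). None of the 8 passed in the 3 comparisons, where 0.707%, 0.42% and 1.25% of all genes passed for RPL9, RPL17 and RPL27. Unadjusted, 0, 4 and 1 of 8 were under 0.05, against 20.4%, 18% and 18.5% of all genes. These comparisons share libraries with each other.

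**Figure D4:**
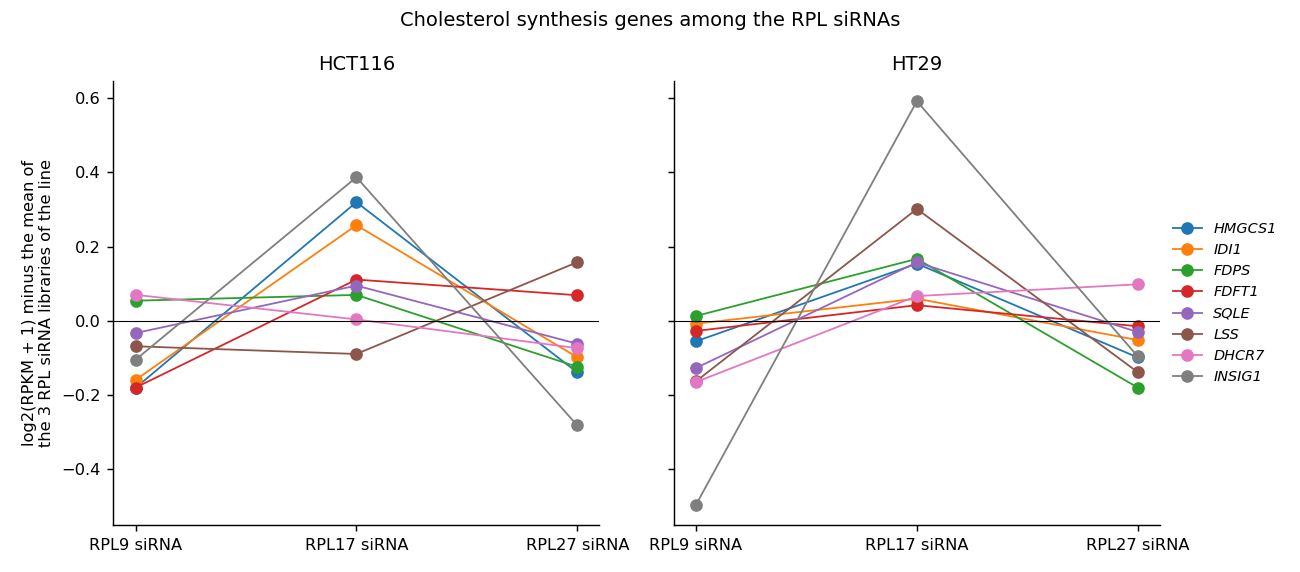
Level of each gene under RPL9, RPL17 and RPL27 siRNA relative to the mean of the 3 in the same line (vertical axis, log2), with 1 point per library and NC not used. RPL17 is the top point in both lines for 6 of the 8 genes and is farthest above the others for INSIG1, at 0.39 in HCT116 and 0.59 in HT29.

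Between the lines, SQLE was the gene with separate levels. Its 4 HCT116 libraries had 361 to 540 RPKM (median 385), all below the 4 HT29 libraries at 608 to 741 RPKM (median 633). No other of the 8 was separated that way, where 6.97% of all tested genes were, and 0 of 8 had all HCT116 libraries above (5.92% of all). The SQLE difference, HCT116 minus HT29, was -0.66 (SE 0.16, limma adjusted p = 0.11), and 0 of 8 genes passed, where 3.61% of all genes did (unadjusted, 2 of 8, against 19.3% of all). With the 6 RPL libraries alone SQLE passed at -0.82 (limma adjusted p = 0.0016), where 22.9% of all genes did, and after length correction of all 8 libraries at -0.64 (limma adjusted p = 0.025), where 7.81% of all genes did. Among the RPL libraries, the 3 HCT116 values lay below the 3 HT29 values for SQLE, FDFT1 and DHCR7, where 15.9% of all genes did, and above them for none (16.4% of all). INSIG1 was on the other side, with 53.8 to 111 RPKM in HCT116 (median 73.5) and 28.6 to 103 RPKM in HT29 (median 49.97), a difference of 0.53 (SE 0.21, limma adjusted p = 0.25) that passed in the 6 RPL libraries alone, at 0.67 (limma adjusted p = 0.048), so that 2 of 8 passed there, against that 22.9%. The other 6 genes differed by -0.22 (FDFT1) to 0.31 (LSS) on the log2 scale, with limma adjusted p of 0.39 to 0.96.

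The 8 genes did not vary as one. With the mean of each line taken out, Pearson r between pairs over the 8 libraries ranged from -0.41 to 0.91 with a median of 0.65, and 24 of 28 pairs were above 0. FDPS and FDFT1 had the highest r, 0.91, followed by FDPS and INSIG1 at 0.88, and HMGCS1 went with SQLE at 0.82. DHCR7 ran against FDPS at -0.41, FDFT1 at -0.34 and INSIG1 at -0.20 but with HMGCS1 at 0.75. The points share the 2 NC libraries and the length trend of HT29 NC; length-corrected, 25 pairs were above 0, with a median of 0.72. Of all other tested genes, those with the highest mean r to the 8 were BRD8, GLB1L and ANO4 at 0.73, CDCA7L, VAMP1, STARD5 and NUSAP1 at 0.72 and KIF4A at 0.71. NUSAP1, a spindle protein, measured 681, 866 and 696 RPKM under RPL9, RPL17 and RPL27 siRNA in HCT116, against 1660 RPKM under NC, and 734, 851 and 701 RPKM in HT29, against 896 RPKM under NC. VAMP1 dropped to rank 535 after length correction.

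The other genes of sterol metabolism were read from lists. Of 14 other sterol synthesis enzymes, 10 were below 0 in the mean RPL siRNA difference from NC, with a median of -0.18, against 0.10 for all tested genes, and 0 passed. The lowest were EBP, the sterol isomerase, at -1.30 (SE 0.17, limma adjusted p = 0.066), and ACAT2, the cytosolic thiolase that makes acetoacetyl-CoA, at -1.23 (SE 0.16, limma adjusted p = 0.066). EBP measured 179, 169 and 125 RPKM under RPL9, RPL17 and RPL27 siRNA in HCT116, against 351 RPKM under NC, and 188, 208 and 152 RPKM in HT29, against 490.2 RPKM under NC. ACAT2 measured 195, 263 and 169 RPKM in HCT116, against 446 RPKM under NC, and 205, 267 and 189.98 RPKM in HT29, against 555 RPKM under NC. For both genes, all 6 RPL values were below the NC value of their line, and both passed after length correction (limma adjusted p = 0.015 and 0.017). CYP51A1, the lanosterol demethylase, was at 0.40 and above NC in all 6 RPL values. Length-corrected, 9 of these 14 enzymes were below 0, with a median of -0.09, against 0.003 for all tested genes.

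**Figure D5:**
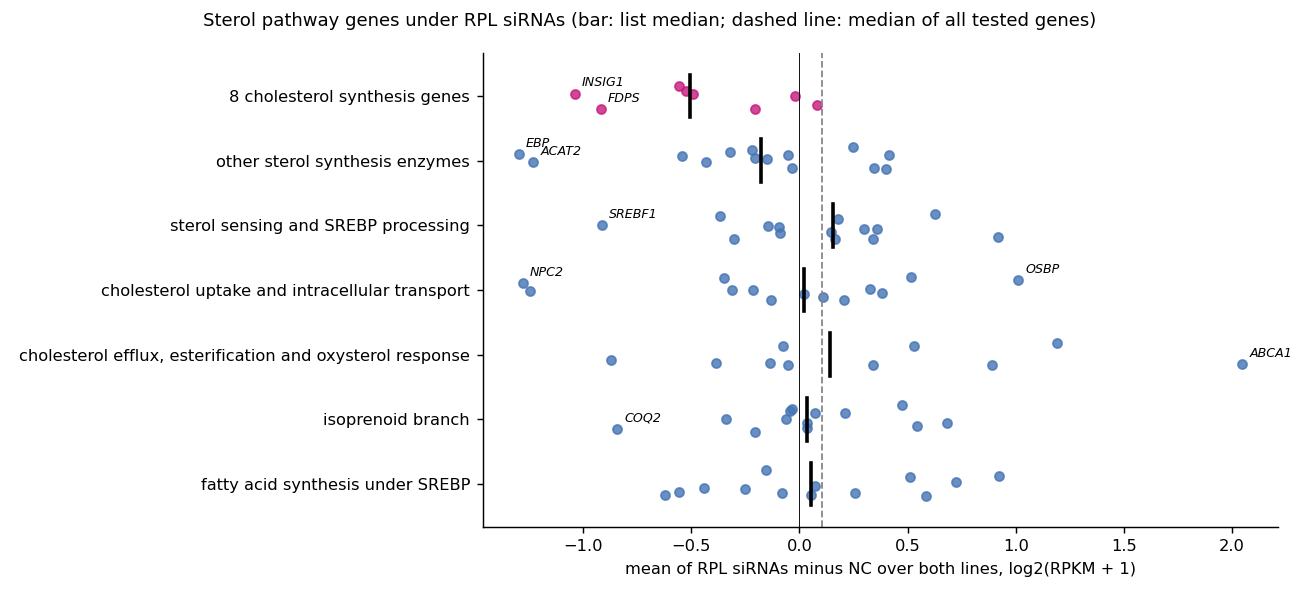
Mean difference of the 3 RPL siRNAs from NC over both lines (horizontal axis, log2 of RPKM + 1) for the 8 genes and for 6 further lists of sterol and lipid metabolism, 1 point per gene with a bar at each list median and a dashed line at the median of all tested genes, 0.10. The 8 genes have a median of -0.51 and the other sterol synthesis enzymes -0.18, and the other 5 lists have medians of 0.02 to 0.15. Length-corrected medians, not drawn, are -0.54 for the 8 genes, -0.09 for the other sterol synthesis enzymes and -0.22 to 0.24 for the other 5 lists.

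Among 14 genes of sterol sensing and SREBP processing, 6 were below 0 with a median of 0.15 (10 and -0.14 length-corrected), and 0 passed as deposited. SREBF1, which encodes SREBP-1, was lowest at -0.91 (SE 0.18, limma adjusted p = 0.085), with 520, 456 and 513 RPKM under RPL9, RPL17 and RPL27 siRNA in HCT116, against 816 RPKM under NC, and 437, 489.98 and 597 RPKM in HT29, against 1088 RPKM under NC. All 6 values were below NC, and SREBF1 passed after length correction (-1.19, limma adjusted p = 0.040). SREBF2, which encodes SREBP-2 and is named here after its values were seen, measured 566, 629 and 575 RPKM in HCT116, against 935 RPKM under NC, and 515, 582 and 542 RPKM in HT29, against 523 RPKM under NC. It was well below NC in HCT116 and on both sides of it in HT29, with a difference of -0.30 over both (SE 0.20, limma adjusted p = 0.37) that became -0.70 after length correction and then passed (limma adjusted p = 0.029). ERLIN2 at 0.92 did not pass with or without length correction. Of 13 genes of uptake and intracellular transport, 6 were below 0, with a median of 0.02 (8 and -0.10 length-corrected). NPC2, which binds cholesterol in lysosomes, was at -1.28 (SE 0.26, limma adjusted p = 0.088), and OSBP, an oxysterol-binding exchange protein, at 1.01 (SE 0.28, limma adjusted p = 0.12). Of 10 tested genes of efflux, esterification and oxysterol response, 5 were below 0, with a median of 0.14 (4 and 0.24 length-corrected). ABCA1, the cholesterol exporter, was highest at 2.05 (SE 0.47, limma adjusted p = 0.10), with 185, 81.8 and 36.9 RPKM in HCT116, against 37.5 RPKM under NC, and 103, 78.7 and 46.8 RPKM in HT29, against 8.35 RPKM under NC. Its values under RPL9 siRNA were highest in both lines, and under RPL27 siRNA in HCT116 it was level with NC. ABCG1 at -0.87 and NR1H3 at -0.39 did not pass in either form, nor did SOAT2, which was listed at 0 in HT29 NC and at 0.839 to 4.68 RPKM elsewhere. ABCA1 at 1.36, OSBP at 0.63 and NPC2 at -1.04 passed after length correction (limma adjusted p = 0.038, 0.042 and 0.022).

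The isoprenoid branch, 13 genes that make or use isoprenoid diphosphates, for ubiquinone, dolichol, protein prenylation or tRNA modification, had 6 below 0 and a median of 0.04 (6 and 0.02 length-corrected), and 0 passed with or without length correction. COQ2, of ubiquinone synthesis, was lowest at -0.84 (SE 0.18, limma adjusted p = 0.093) followed by GGPS1 at -0.34, and PGGT1B, a prenyltransferase subunit, was highest at 0.68 (SE 0.17, limma adjusted p = 0.11), followed by PDSS2 at 0.54. Length-corrected, COQ2 was at -0.72, GGPS1 at -0.41, PGGT1B at 0.02 and PDSS2 at 0.37. Of 13 genes of fatty acid synthesis, most of them also under SREBP control, 6 were below 0, with a median of 0.05 (9 and -0.22 length-corrected). FADS1, a desaturase, stood at -0.62 and ACSL3, an acyl-CoA synthetase, at -0.56. ACSL3 measured 694, 905 and 896 RPKM under RPL9, RPL17 and RPL27 siRNA in HCT116, against 1652 RPKM under NC, and 1131, 1196 and 1246 RPKM in HT29, against 1285 RPKM under NC. FADS1 and ACSL3 were below NC in all 6 values and passed after length correction (limma adjusted p = 0.022 and 0.017). GPAM and ACACA were highest, at 0.92 and 0.72, with ACACA at 2450 to 2552 RPKM in HCT116 RPL libraries, against 2706 RPKM under NC, and 2691 to 2986 RPKM in HT29 RPL libraries, against 956 RPKM under NC, so that its value over both lines comes from HT29 and was 0.05 after length correction.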

How the data were processed

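RNA was extracted with Trizol and libraries were made with the Illumina TruSeq RNA Sample Prep Kit, per the labels' protocols. CASAVA 1.8.2, TopHat2 2.0.9 and the hg19 build are named in the submitters' processing notes. The authors deposited RPKM per gene for each library, and the sources used here do not give the counting rule. In 1198 single-exon genes, low RPKM values came within 0.05 of a whole read for only 26.0% to 58.5%, so counts were not recovered and the depth figure is rough.

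RPKM values were analysed as log2(RPKM + 1), for genes whose mean reached 1 RPKM, with limma 3.58.1 in R 4.3.3 (variance trend, Benjamini-Hochberg adjustment over all tested genes, threshold 0.05). The model had terms for line and siRNA, with 3 residual degrees of freedom. RPL siRNAs were compared among themselves on 6 libraries (2 degrees of freedom), and the interaction of line with any RPL siRNA left 4. No separate cultures are named in the labels, so p-values measure only the spread between these libraries. Length correction subtracted from each library a natural spline with 5 degrees of freedom over the length of a GENCODE 29 transcript. The fit of the mean RPL siRNA difference was also run on simulated data. Those had independent noise, no line difference and no length trend, so that run does not cover the trend of HT29 NC. Alternatives covered the pseudocount, filter, normalisation, variance model, design and each library left out.

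The 8 genes, the lists and the tests were chosen with earlier results of these data known. In each list the 2 lowest and 2 highest tested genes were picked for naming. Some list genes are counted but not reported here. Likeness was the mean Pearson r to the 8 genes after subtraction of line means. Motifs were searched on both strands.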

Additional observations from a re-analysis of the deposited data

Results flagged for a closer look

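2 of the 8 genes lay on opposite sides of NC in the lines, below in HCT116 and above in HT29 (12.6% of all tested genes). Length-corrected, 1 of 8 did, DHCR7 (7.8% of all). For HMGCS1, each of the 3 RPL siRNAs lay below NC in HCT116 and above NC in HT29, and the RPL difference in HCT116 minus that in HT29 was -0.96 (SE 0.31), which did not pass (limma adjusted p = 0.064). For DHCR7 the same held, and the difference of -0.93 (SE 0.23) passed (limma adjusted p = 0.023), where 22.9% of all tested genes passed. Both tests take the RPL libraries within a line for replicates and rest on 1 NC library per line, so their spread comes from the RPL libraries alone. The trend of HT29 NC with transcript length moves with them: length-corrected, the HT29 differences were 0.09 for HMGCS1 and 0.40 for DHCR7, and the DHCR7 test no longer passed (-0.76, limma adjusted p = 0.078). The part of the HT29 NC library in the rest was not tested.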

How the results depend on the processing

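The line term of the model paired the libraries, setting each RPL siRNA against the NC library of its line. The labels give no replicate numbers, and with 1 library per line and siRNA no pairing within a line was possible. Of the values for the 8 genes, 702 stayed on the same side of the threshold and in the same direction under alternatives other than leaving out a library. Another 18 changed sign, whether or not they passed, while 12 newly passed and 4 no longer passed with their sign kept. With 1 library left out these were 435, 42, 34 and 1. Both sets include fits that hold 1 NC library. Causes were not tested. For the mean RPL siRNA difference from NC, 0 of the 8 genes passed as reported (24 of all 14281 genes). FDPS passed after length correction (863 of 14180) and with the RPL siRNAs taken as 1 group (693 of 14281). For RPL9 and RPL27 against NC, 1 passed after length correction (472 and 246 of 14180). Fits of these comparisons with NC within 1 line or without an NC library hold 1 NC library, so the genes passing in them are not listed here. Between lines, 1 passed under quantile normalisation (594 of 14281), median-centring (603 of 14281) or length correction (1108 of 14180). In the 6 RPL libraries 2 passed (3265 of 14281), and with 1 RPL library left out 0 did (185 to 201 of 14281). Leaving out an NC library gave the same estimates as the 6 RPL libraries, -0.82 for SQLE and 0.67 for INSIG1. For the interaction, 0 passed under quantile normalisation (3066 of 14281), length correction (1070 of 14180) or without a variance trend (2531 of 14281). With 1 RPL library left out, 0 to 2 did (2509 to 3157 of 14281). DHCR7 changed sign against NC to -0.078 (quantile), -0.12 (median-centring) and -0.39 (HCT116 alone) for the mean, to -0.14, -0.17 and -0.013 (quantile, median-centring, length correction) for RPL9, to -0.045 and -0.083 (quantile, median-centring) for RPL17 and to -0.049 and -0.11 for RPL27. In HT29 alone the mean was 0.46 for HMGCS1 and 0.11 for SQLE. Between lines, length correction gave 0.079 for FDPS and 0.030 for DHCR7, and the 6 RPL libraries gave -0.024 for HMGCS1, -0.044 for IDI1 and 0.071 for FDPS. LSS under RPL27 against the other two RPL siRNAs was -0.0056 after length correction.

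With 1 library left out, mean differences from NC ran from -0.50 to 0.46 (HMGCS1), -0.52 to 0.11 (SQLE) and -0.39 to 0.55 (DHCR7). In the same order of genes they ran from -0.62 to 0.34, -0.60 to 0.028 and -0.43 to 0.50 for RPL9, from -0.26 to 0.70, -0.39 to 0.23 and -0.35 to 0.58 for RPL17, and from -0.62 to 0.34, -0.56 to 0.062 and -0.37 to 0.56 for RPL27. Between lines they ran from -0.024 to 0.34 (HMGCS1), -0.044 to 0.19 (IDI1), -0.14 to 0.071 (FDPS) and -0.25 to 0.11 (DHCR7). Against the other two RPL siRNAs, DHCR7 ran from -0.25 to 0.10 for RPL9, from -0.035 to 0.14 for RPL17 and from -0.11 to 0.15 for RPL27, LSS from -0.13 to 0.45 for RPL17 and from -0.21 to 0.24 for RPL27, and FDFT1 from -0.022 to 0.10 for RPL27. Over all genes, the mean comparison passed 24 as reported and 5 to 863 in both lines with another setting and no library left out. For RPL9, RPL17 and RPL27 the reported 1, 2 and 0 became 472, 49 and 246 after length correction. The 515 between lines became 185 to 3265 where both NC libraries were kept or both left out. The 101, 60 and 179 among RPL siRNAs became 0 to 297, 0 to 316 and 0 to 382, and the 3266 of the interaction became 1070 after length correction. Depth is not recorded in the tables, so no limit from depth is given.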
